A study of Mus musculus with 14 samples.

Results

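The injured hemisphere of control mice was compared with the uninjured hemisphere of the same brains at 3 days after traumatic brain injury (TBI), gene by gene, in CD11b+ cells. The members of the comparison were 8 of the 14 libraries of the series, 4 of the ipsilateral (IL) lesion hemisphere and 4 of the contralateral (CL) non-lesion hemisphere, chosen by their labels and paired by the mouse numbers 3541, 3545, 3546 and 3551. The other 6 libraries came from cKO mice, which carry a floxed gene beside the same Cre, and enter a test of genotype by hemisphere and 1 alternative fit of the hemisphere difference over all 14 libraries. All 4 mice were Ctrl males of the strain C57BL/6, 8 to 12 weeks old, with the genotype Cx3cr1-CreER+/-, and all had received tamoxifen. Cre recombinase is driven from the Cx3cr1 locus in microglia and other myeloid cells, and these mice carried no floxed gene in their labels. TBI was a controlled cortical impact of moderate severity, in which a piston strikes the exposed cortex of 1 hemisphere. Both hemispheres came from the same animals, so the groups shared the Cre allele, the tamoxifen and the injury itself and differed in the side of the brain. The CL hemisphere thus belongs to an injured brain, and no sham or naive library was used here. Cells were dissociated from each hemisphere and held on magnetic beads against CD11b (Itgam), a surface integrin of microglia, macrophages, monocytes and neutrophils, and their RNA was sequenced in bulk.

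Microglia are the resident macrophages of the brain. In the healthy brain they express a set of homeostatic genes, among them the purinergic receptor P2ry12, by which their processes sense nucleotides released from damaged cells. After injury or near dying cells and myelin debris they are known to lower these genes and to raise genes of phagocytosis, lysosomes and lipid handling, a state named disease-associated, while monocytes and neutrophils enter from the blood.

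The 8 libraries held 12.2 to 41.6 M reads (M, 1e+06 reads) with a median of 34.7 M, as read from the step of 1 read in the deposited values, which are counts per 1e+06 reads (CPM). The IL library of mouse 3546 was the shallowest and the CL library of mouse 3551 the next, with 16.1 M. On principal components of the log2 values, the second component (33.2% of the variance) put every IL library on one side and every CL library on the other, and on the first (38.7%) mice 3541 and 3545 lay above mice 3546 and 3551 in each hemisphere, a split for which the labels give no batch. The IL library of mouse 3546 stood apart in the length of its transcripts. In the shortest of 5 equal classes of gene length, the median IL minus CL difference on the log2 scale was -0.21 in mouse 3546 and 0.10, 0.12 and -0.01 in mice 3541, 3545 and 3551. Values of short, abundant genes in that library are therefore given beside the results that they touch. In what follows, 4 values in a row are always those of mice 3541, 3545, 3546 and 3551 in this order, in CPM as deposited. A value after ± beside a log2 fold change is its standard error (SE) in the fit. This SE is moderated by a trend over all genes, so it is not the spread of the 4 mice alone. Genes named beyond the rule given with the processing were chosen after their values were seen.

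Of 16376 genes tested, 3348 (20.4%) were called different between the hemispheres, 1663 (10.2%) higher and 1685 (10.3%) lower in IL. Calls were made with limma and the mouse as a block, needing a 1.2-fold change or more and a Benjamini-Hochberg adjusted p of 0.05 or less, and "rose" and "fell" below refer to called genes. Of the 3348 genes, 3336 moved the same way in all 4 mice, and for 2022 no IL library overlapped a CL library. Over all genes tested, 16.1% did not overlap, 18.9% were higher in IL in all 4 mice and 23.3% were lower in all 4. The rises were the larger changes, with 515 genes at least 2-fold higher against 233 at least 2-fold lower, and 98 at least 4-fold higher against 17 lower. The calls rested on the pairing, since without the mouse as a block 1230 genes (7.51%) were called, 686 higher and 544 lower, all of them among the 3348 and in the same direction. Leaving out the mice in turn, in the order above, gave 1861, 1586, 3901 and 1809 calls, so the call counts in brackets below are given in that way, and under another scaling, wherever they moved by more than 1.5 times. The balance of directions depended on the scaling, since on the deposited CPM without further scaling 1337 of 3621 calls were higher. The share called also grew with the level, from 4.70% of genes under 1 CPM to 53.2% of the 109 genes over 1000 CPM.

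**Figure D1:**
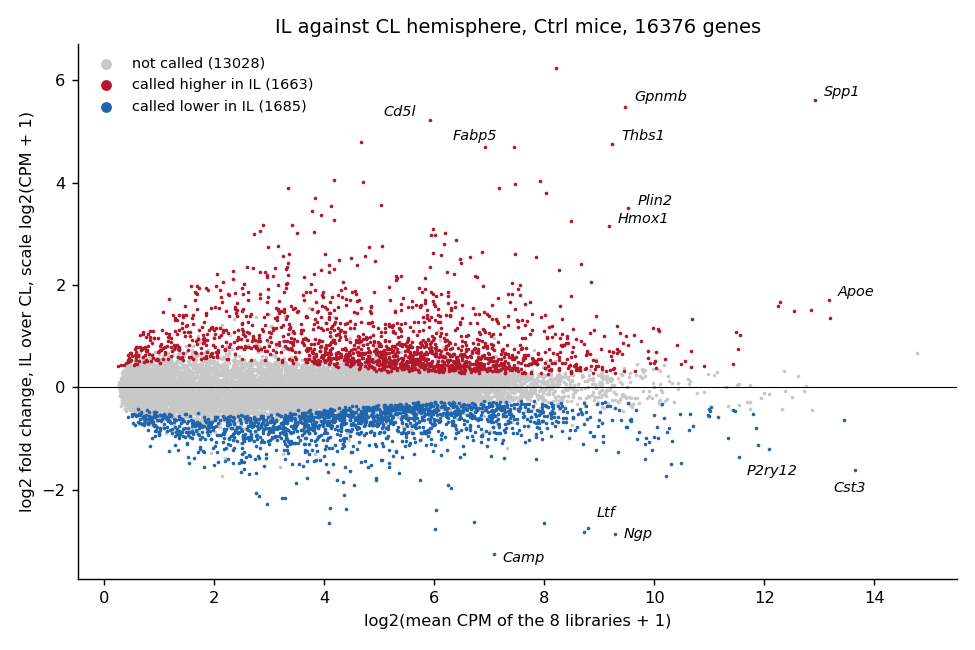
Log2 fold change of IL over CL (y axis, on the log2(CPM + 1) scale) against log2(mean CPM of the 8 libraries + 1) (x axis) for 16376 genes, with genes called higher in red, called lower in blue and the others in grey. The largest rises reach above 5 on the log2 scale and the largest falls stay above -4, and the falls named at the highest levels are Cst3 and P2ry12.

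The largest rises among genes of at least 4 in mean log2(CPM + 1) in a hemisphere included Spp1 and Gpnmb. Spp1, osteopontin, a secreted phosphoprotein of matrix and phagocytes, read 1246, 152, 113 and 466 CPM in the CL libraries and 20073, 14672, 15698 and 9791 CPM in the IL libraries. Every IL value was above every CL value. The fitted rise was 48.8-fold (log2 fold change 5.61 ± 0.51, moderated SE, 4 mice, adjusted p = 7.48e-04), and Spp1 became one of the most abundant transcripts of the IL libraries. Gpnmb, a transmembrane glycoprotein of phagocytes with a heavy lysosomal load, went from 102, 14.6, 6.71 and 66.6 CPM to 2054, 1129, 1501 and 767 CPM, a rise of 5.48 ± 0.60 on the log2 scale. The CL libraries of Spp1 and Gpnmb spread over 10-fold between mice, with mouse 3541 highest and mouse 3546 lowest, while the IL libraries lay within 3-fold of each other. The fitted rise of Gpnmb was 44.8-fold, and it was 27.4-fold without mouse 3546 and 69.8-fold without mouse 3551.

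Further rises among the 12 largest had the same lack of overlap. Cd5l, a secreted macrophage protein that limits apoptosis, read at most 3.27 CPM in CL and at least 81.0 CPM in IL, and rose 37.3-fold. Htr2b, a serotonin receptor, went from 1.49, 1.05, 0.141 and 0.821 CPM to 61.8, 45.8, 47.5 and 36.7 CPM (4.79 ± 0.19). Thbs1, thrombospondin 1, a matrix protein that binds CD36 and CD47, went from 58.7, 22.5, 75.6 and 37.6 CPM to 1031, 1152, 1389 and 1037 CPM. Thrombospondin thus reached over 1000 CPM in each IL library, with a rise of 4.75 ± 0.24 on the log2 scale and an adjusted p of 1.89e-04. Fabp5, a carrier of fatty acids within the cell, read 27.9, 10.7, 4.13 and 12.7 CPM and then 533, 386, 146 and 278 CPM (4.69 ± 0.15). Hal (histidine ammonia lyase) rose 25.7-fold and Cdo1 (cysteine dioxygenase) 16.6-fold, and both are enzymes of amino acid breakdown. Fn1 (fibronectin), Emp1 (a membrane protein of epithelial cells) and Adam8 (a membrane metalloprotease of myeloid cells) rose 16.4-fold, 16.2-fold and 15.6-fold. All 11 rises named here kept their calls without the block and when any 1 mouse was left out.

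**Figure D2:**
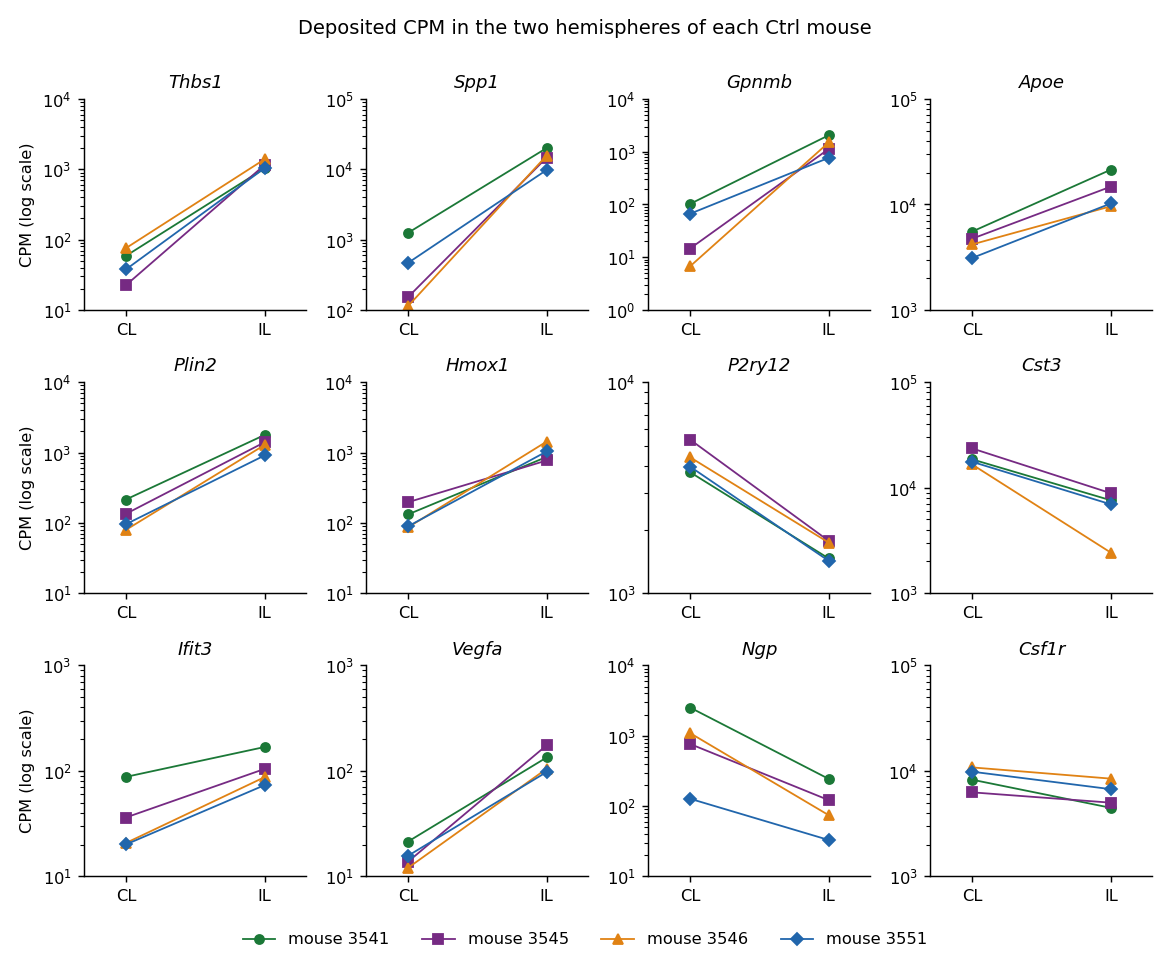
Deposited CPM (y axis, log scale) of 12 genes in the CL and IL library of each Ctrl mouse (x axis), with a line and symbol for each of the 4 mice. Thbs1, Spp1, Gpnmb, Apoe, Plin2, Hmox1 and Vegfa lie higher in every IL library than in any CL library, P2ry12 and Cst3 lower, Ifit3 and Ngp move within each mouse but overlap between mice, and Csf1r, which was not called, is lower in IL in all 4 mice.

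The largest falls were led by genes of neutrophil granules. Camp, the antimicrobial peptide cathelicidin, read 526, 149, 272 and 35.2 CPM in CL and 51.9, 25.001, 4.42 and 8.71 CPM in IL. Ngp, another granule protein, read 2522, 765, 1093 and 127 CPM and 243, 122, 74.2 and 33.0 CPM. In both genes the IL library was lower than the CL library in all 4 mice, with log2 fold changes of -3.26 ± 0.55 and -2.86 ± 0.29 (adjusted p = 0.00755 and 0.00103), but the hemispheres overlapped between mice, because the CL library of mouse 3551 lay below the IL library of mouse 3541. S100a9, S100a8, Retnlg, Ltf and Lcn2, all abundant neutrophil transcripts, and Mpo and Elane, the peroxidase and elastase of primary granules that are transcribed early in neutrophil development, fell by between 5.18-fold and 7.08-fold. Itgb2l, an integrin gene, fell 5.11-fold, and Prg2, the major basic protein of eosinophils, 6.22-fold. Of the 12 largest falls at the same minimum level, Gpr165, a G protein-coupled receptor gene on the X chromosome, was the one outside these granulocyte genes. It read 10.001, 27.7, 45.3 and 46.7 CPM in CL and 2.05, 4.61, 13.2 and 6.20 CPM in IL and fell 4.26-fold, with overlap between the CL library of mouse 3541 and the IL library of mouse 3546. Gpr165 kept its call without the block, and the granulocyte genes lost theirs. Without mouse 3541 or without mouse 3545 Prg2 and Elane lost their calls, without mouse 3545 Mpo did, and without mouse 3541 or mouse 3551 S100a8 did. Part of the size of these falls lay in mouse 3546. Without it the fall was 5.54-fold for Camp, against 9.58-fold with it, and 3.90-fold for S100a9, 3.41-fold for S100a8, 4.22-fold for Retnlg, 3.23-fold for Mpo and 2.70-fold for Elane, which with it were 7.08-fold, 6.30-fold, 6.79-fold, 5.22-fold and 5.18-fold. Prg2 fell 3.41-fold without mouse 3546 and 10.9-fold without mouse 3551.

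The marker lists show which cells the beads had held. Itgam itself, the target of the beads, read 650.3, 849, 1250.0 and 1714 CPM in CL and 749.9, 771, 1385 and 1439 CPM in IL, and the 18 markers of microglia and macrophage identity summed to 52506 to 60802 CPM in CL and 35862 to 43492 CPM in IL, far above the other lists in every library, so the label of CD11b+ cells held. Of these 18 markers, 1 rose and 5 fell, where 10.2% of all genes tested rose and 10.3% fell (0 and 3 without the block, and with each mouse left out in turn 0, 0, 2 and 0 rose), with a median log2 fold change of -0.16 against -0.03 for all genes. Among those that fell were Cx3cr1, Sall1, Tmem119 and P2ry12, which are high in resident microglia, and Cd68, a lysosomal protein of phagocytes, rose by 0.51 ± 0.09 on the log2 scale, a call lost without the block and without mouse 3541, 3545 or 3551. C1qa, C1qb and C1qc, Spi1, Ptprc and Adgre1 were not called, with log2 fold changes between -0.20 and 0.19. Fcer1g, at -0.12 and not called, turned to 0.39 and was called when mouse 3546 was left out.

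Markers of infiltrating monocytes were higher in IL. Of 18 members, 11 rose and 1 fell (10 and 0 without the block, and with each mouse left out in turn 0, 0, 1 and 1 fell, and on the deposited CPM 2 fell), where 10.2% of all genes rose and 10.3% fell, with a median of 1.12. Their sum read 1152, 506, 668 and 318 CPM in CL and 2238, 2297, 2245 and 1827 CPM in IL, without overlap. Ccr2, the chemokine receptor by which monocytes leave the bone marrow and enter tissue, read 30.8, 33.2, 40.9 and 36.6 CPM and 76.5, 67.96, 91.7 and 59.1 CPM, a rise of 1.11 ± 0.12 on the log2 scale. F10 (coagulation factor X), Emilin2, Tgfbi, Cd44, Ahnak, Ms4a4c, Vcan and Itga4 also rose, beside Fn1. Calls were lost for Itga4 without the block and without mouse 3541 or 3545 and for Vcan without mouse 3551. The classical monocyte genes Ly6c2, Chil3 and Plac8 did not, with log2 fold changes of -1.02, -0.67 and 0.03 that were not called, and Hp, shared with neutrophils, fell by 1.21 ± 0.31 on the log2 scale, a call lost without the block and without mouse 3541 or 3545. In bulk RNA, more cells of a type and more RNA of its genes per cell cannot be told apart, and this holds for every list given here.

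Neutrophil markers fell in 13 of the 16 tested of 17, and in 0 without the block, where 10.3% of all genes fell, with a median of -2.38. Their sum read 9302, 3257, 5109 and 1462 CPM in CL and 1641, 1079.8, 974 and 921 CPM in IL, so the CL libraries ranged over 6-fold while the IL libraries stayed within 2-fold. The sum was lower in IL within each mouse. Csf3r, the receptor for G-CSF, which mature neutrophils keep, and Cxcr2 were not called, at -0.24 ± 0.08 and -0.57 ± 0.30 on the log2 scale.

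Border-associated macrophages line the meninges and vessels. Of their 12 markers 3 rose, Clec4n, Ms4a7 and Siglec1, and 5 fell, Mrc1, Lyve1, Cbr2, Clec10a and Cd209f (3 and 2 without the block, and with each mouse left out in turn 4, 4, 6 and 3 fell), so the list was split. Mrc1, the mannose receptor CD206, read 89.8, 132, 233 and 136 CPM and 43.8, 42.7, 184 and 62.3 CPM and fell by 0.94 ± 0.18 on the log2 scale, a call lost without the block and without mouse 3551. Of 9 dendritic cell markers 1 rose, Ccr7, and 3 fell, Fscn1, Batf3 and Cd209a (1 and 0 without the block, and with each mouse left out in turn 1, 1, 4 and 2 fell). T and NK cell markers fell in 6 of the 9 tested of 14 (4 without the block, and with each mouse left out in turn 2, 3, 5 and 4 fell), at sums of 20.9 to 33.9 CPM in CL and 10.4 to 18.7 CPM in IL. Of 5 B cell markers tested of 8, Cd22, which microglia also express, rose and Cd79b fell (1 and 0 without the block, and with each mouse left out in turn 0, 0, 0 and 0 fell). The shares of tested markers called were 66.7%, 44.4%, 66.7% and 40.0% in these lists in the order given, against 20.4% of all genes. Lost calls were those of Lyve1 and Cd209a without the block, of Clec10a and Batf3 without the block and without mouse 3541, 3545 or 3551, of Fscn1 without the block and without mouse 3541 or 3545 and of Cd79b without the block and when any 1 mouse was left out.

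Transcripts of cells that should not carry CD11b were low. The shares of tested markers called were 16.7% (neuron), 33.3% (oligodendrocyte), 30.0% (astrocyte) and 33.3% (endothelial and mural), against 20.4% of all genes. Neuron markers summed to 7.78 to 11.2 CPM in CL and 8.19 to 11.2 CPM in IL, and of the 6 tested of 12 the synapsin gene Syn1 rose, a call lost without mouse 3541 or 3545 (1 and 0 without the block, and with each mouse left out in turn 0, 0, 1 and 1 rose and 0, 0, 1 and 0 fell, and on the deposited CPM 1 fell). Oligodendrocyte markers summed to 235 to 335 CPM in CL and 184 to 261 CPM in IL, and 4 of 12 fell (0 without the block, and with each mouse left out in turn 2, 2, 3 and 3 fell), among them the myelin gene Mag at -0.52 ± 0.10 on the log2 scale. Astrocyte markers summed to 216 to 239.8 CPM in CL and 129 to 185 CPM in IL. Of 10, Gfap and S100b rose and the glutamate transporter Slc1a3 fell (1 and 1 without the block, and with each mouse left out in turn 1, 1, 2 and 1 rose and 1, 1, 2 and 1 fell). Gfap, the filament protein of reactive astrocytes, read 12.9, 4.74, 11.7 and 8.34 CPM in CL and 24.6, 27.05, 42.1 and 41.8 CPM in IL. Of 12 endothelial and mural markers Kdr rose and Ly6c1, Rgs5 and Slco1a4 fell (0 and 0 without the block, and with each mouse left out in turn 1, 0, 1 and 0 rose and 1, 1, 4 and 3 fell). Calls were lost for Mag and Slco1a4 without the block and without mouse 3541 or 3545, for S100b and Rgs5 without the block and without mouse 3541, 3545 or 3551, for Kdr without the block and without mouse 3545 or 3551 and for Ly6c1 without the block. Of 5 erythroid markers tested of 6, limma called 0, and 0 had an unadjusted p under 0.05 (0 without the block, and with each mouse left out in turn 0, 0, 3 and 0 rose). Hbb-bs and Hba-a2, at -0.05 and -0.08, turned to 0.46 and 0.67 and were called without mouse 3546, whose IL library read 6.03 CPM of Hbb-bs against 20.1 CPM in its CL library.

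**Figure D3:**
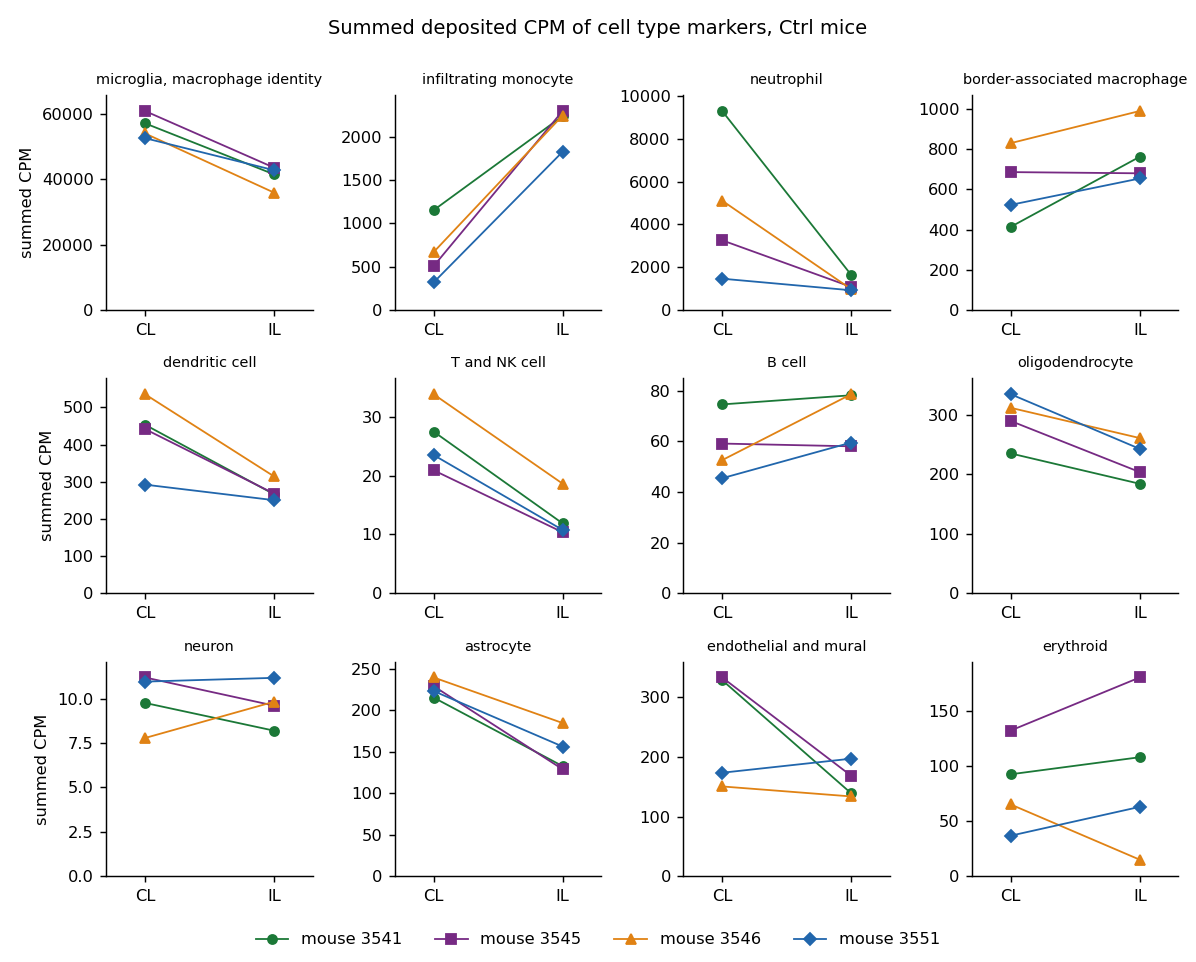
Summed deposited CPM (y axis, from 0) of 12 lists of cell type markers in the CL and IL library of each of the 4 Ctrl mice (x axis). The sum of monocyte markers is higher and that of neutrophil markers lower in IL in every mouse, and microglia and macrophage identity markers stay at 35862 CPM or more in each library.

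Homeostatic microglia genes fell as a group. Of 28 members tested 21 fell and 0 rose, where 10.3% of all genes fell (15 and 0 without the block), with a median log2 fold change of -0.76 against -0.03 for all genes, and the medians within the 4 mice lay between -0.65 and -0.78. Cst3, cystatin C, a secreted inhibitor of cathepsins, read 18573, 23574, 16608 and 17606 CPM in CL and 7597, 8868, 2424 and 6954 CPM in IL. It was the most abundant gene called and fell 3.07-fold (-1.62 ± 0.28, adjusted p = 0.00906), with the lowest IL value in mouse 3546. P2ry12 read 3747, 5347, 4409.9 and 3982 CPM in CL and 1461, 1769.8, 1736 and 1423 CPM in IL. Its neighbour and paralog P2ry13 read 1856, 2492, 2354 and 1826 CPM and 616, 683, 935 and 659 CPM. Both ADP receptors fell without overlap, with log2 fold changes of -1.36 ± 0.11 and -1.48 ± 0.11. Selplg, the selectin ligand PSGL-1, fell 2.31-fold, Tmem119, a membrane protein of microglia, went from 3533 ± 971 CPM (mean ± SD, n = 4) to 1670.4 ± 411 CPM, and Cx3cr1, the fractalkine receptor whose locus carries the Cre, from 2139 ± 454 CPM to 1179 ± 166 CPM. Sall1, a transcription factor that maintains microglial identity, fell by 0.91 ± 0.08 on the log2 scale, and its call was lost without the block. Csf1r, the receptor for CSF1 and IL-34 on which microglia depend, read 8262, 6267, 10799.7 and 9835 CPM and 4470.0, 5002, 8451 and 6716 CPM. It was lower in IL in all 4 mice but not called (-0.44 ± 0.15, adjusted p = 0.0832). Ctss, Fcrls, Lgmn, Bin1 and Olfml3 were not called either, with log2 fold changes from -0.35 to 0.32.

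Genes of the disease-associated state moved the other way. Of 26 members 20 rose and 0 fell, where 10.2% of all genes rose (13 and 0 without the block, and on the deposited CPM 2 fell, and under upper-quartile scaling 2 fell), with a median of 0.83. Apoe, the lipid carrier apolipoprotein E, read 5531, 4738, 4179.8 and 3108 CPM in CL and 21370.4, 14759.8, 9616 and 10229 CPM in IL. Ctsb, the lysosomal protease cathepsin B, read 7240.0, 5546, 4432 and 5062 CPM and 15344, 12473, 13474 and 11559 CPM. Both were among the 10 most abundant called genes, and they rose 3.28-fold and 2.55-fold without overlap. Lyz2, lysozyme, rose 3.20-fold from 2513 ± 1029 CPM to 7425 ± 2459 CPM, and Lgals3, galectin 3, 9.55-fold from 74.9 ± 45.8 CPM to 637 ± 246 CPM. Ctsd, cathepsin D, the most abundant member, read 27974, 24728, 17563 and 20340.4 CPM and 37503, 33756, 33191 and 30226 CPM. The 4 IL libraries lay above the 4 CL libraries, yet the adjusted p was 0.0594 and Ctsd was not called. Within this list the size of the rise differed widely, from Spp1, Gpnmb and Fabp5 above 4 on the log2 scale to Cst7, Lpl, Timp2, Cd68 and Ctsz between 0.46 and 0.59 at the other end. Lost calls were those of Lpl without the block and without mouse 3541 or 3545, of Cd68 without the block and without mouse 3541, 3545 or 3551 and of Timp2 without mouse 3541 or 3545. Trem2, a lipid receptor known to be needed for this state and counted here among the homeostatic genes, fell by 0.60 ± 0.12 on the log2 scale, a call lost without mouse 3541 or 3545 and without the block. Tyrobp, its adaptor, Cd9, Ank and Ccl6 were not called, at -0.40 to -0.30, and Tyrobp was higher in IL in 3 of the 4 mice.

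The genes that the study examined for myelination partly repeat this list. Of 13 members 9 rose, Spp1, Gpnmb, Atp6v0d2, Igf1, Itgax, Gpx3, Clec7a, Axl and Lpl, and Mrc1 fell (4 and 0 without the block, and with each mouse left out in turn 1, 1, 1 and 0 fell), where 10.2% of all genes rose and 10.3% fell, with a median of 0.82. The study drew the list from the literature and, in its comparison of cKO and Ctrl mice, reported no significant differences in these genes. The calls given here are between hemispheres of Ctrl mice, which is another comparison. Igf1, a growth factor for oligodendrocytes, read 6.32, 10.8, 14.6 and 9.46 CPM in CL and 21.8, 17.1, 28.3 and 24.3 CPM in IL (1.19 ± 0.19). Lpl, lipoprotein lipase, read 127, 87.6, 118 and 162 CPM and 235, 124, 158 and 172 CPM, which overlapped between mice, and its rise of 0.56 ± 0.14 was lost without the block and without mouse 3541 or 3545.

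Extracellular matrix and wound genes showed the largest median of the 32 lists, 1.60, with 21 of 30 members higher and 1 lower (20 and 0 without the block, and with each mouse left out in turn 0, 0, 1 and 2 fell), where 10.2% of all genes rose and 10.3% fell. Beside Spp1, Thbs1 and Fn1, Ecm1 rose from 35.8, 17.0, 11.5 and 12.8 CPM to 396, 282, 193 and 203 CPM, 14.9-fold, with the smallest p of all genes tested. Vim, the filament protein vimentin, rose 5.87-fold, Tgfbi 4.92-fold, Lgals1, galectin 1, 4.52-fold, and Mmp14, a membrane metalloprotease, 4.42-fold. Timp2, an inhibitor of metalloproteases, was the second most abundant member and rose by 0.52 ± 0.09 on the log2 scale, a call lost without mouse 3541 or 3545. Plaur, the urokinase receptor, read 156, 68.6, 105 and 58.6 CPM in CL and 169, 253, 128 and 139.9 CPM in IL and was not called (adjusted p = 0.0517). Mmp9, a gelatinase stored in neutrophil granules, fell by 1.15 ± 0.27 on the log2 scale, and that call was lost without the block and without mouse 3541 or 3545. Fn1, Tgfbi, Cd44 and Vcan also stand in the monocyte list, whose sum was higher in every IL library, and the share of monocytes in this rise was not tested.

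Scavenger and phagocytic receptors bind lipoproteins, apoptotic cells and antibody-coated targets. Of 26 members 13 rose and 3 fell (7 and 0 without the block, and with each mouse left out in turn 1, 1, 4 and 2 fell), where 10.2% of all genes rose and 10.3% fell, with a median of 0.44. Msr1, scavenger receptor A, read 43.3, 29.8, 28.9 and 41.9 CPM in CL and 592, 543, 341 and 458 CPM in IL and rose 13.8-fold. Cd36, a receptor for oxidised lipids and thrombospondin, rose 4.74-fold from 23.9, 27.3, 30.9 and 21.4 CPM to 155, 126, 131 and 75.7 CPM. Lrp1, a large receptor for apolipoprotein E and myelin debris, rose in each mouse but overlapped between mice, with 268, 254, 779 and 644 CPM in CL and 447, 419.7, 1201 and 821 CPM in IL. Its call (0.69 ± 0.10) was lost without the block. The TAM receptors, which take up apoptotic cells, parted. Axl rose by 0.76 ± 0.09 and its ligand Gas6 by 0.88 ± 0.09 on the log2 scale (the Gas6 call was lost without the block), while Mertk fell by 0.77 ± 0.10 on the log2 scale. Pros1, the ligand protein S, fell by 0.29 ± 0.08. The Pros1 call was lost without the block, without mouse 3541, 3545 or 3551 and under median-ratio scaling. The Fc gamma receptor Fcgr3 was not called (-0.11 ± 0.10), whereas Fcgr4 and the inhibitory Fcgr2b rose 2.98-fold and 1.52-fold.

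**Figure D4:**
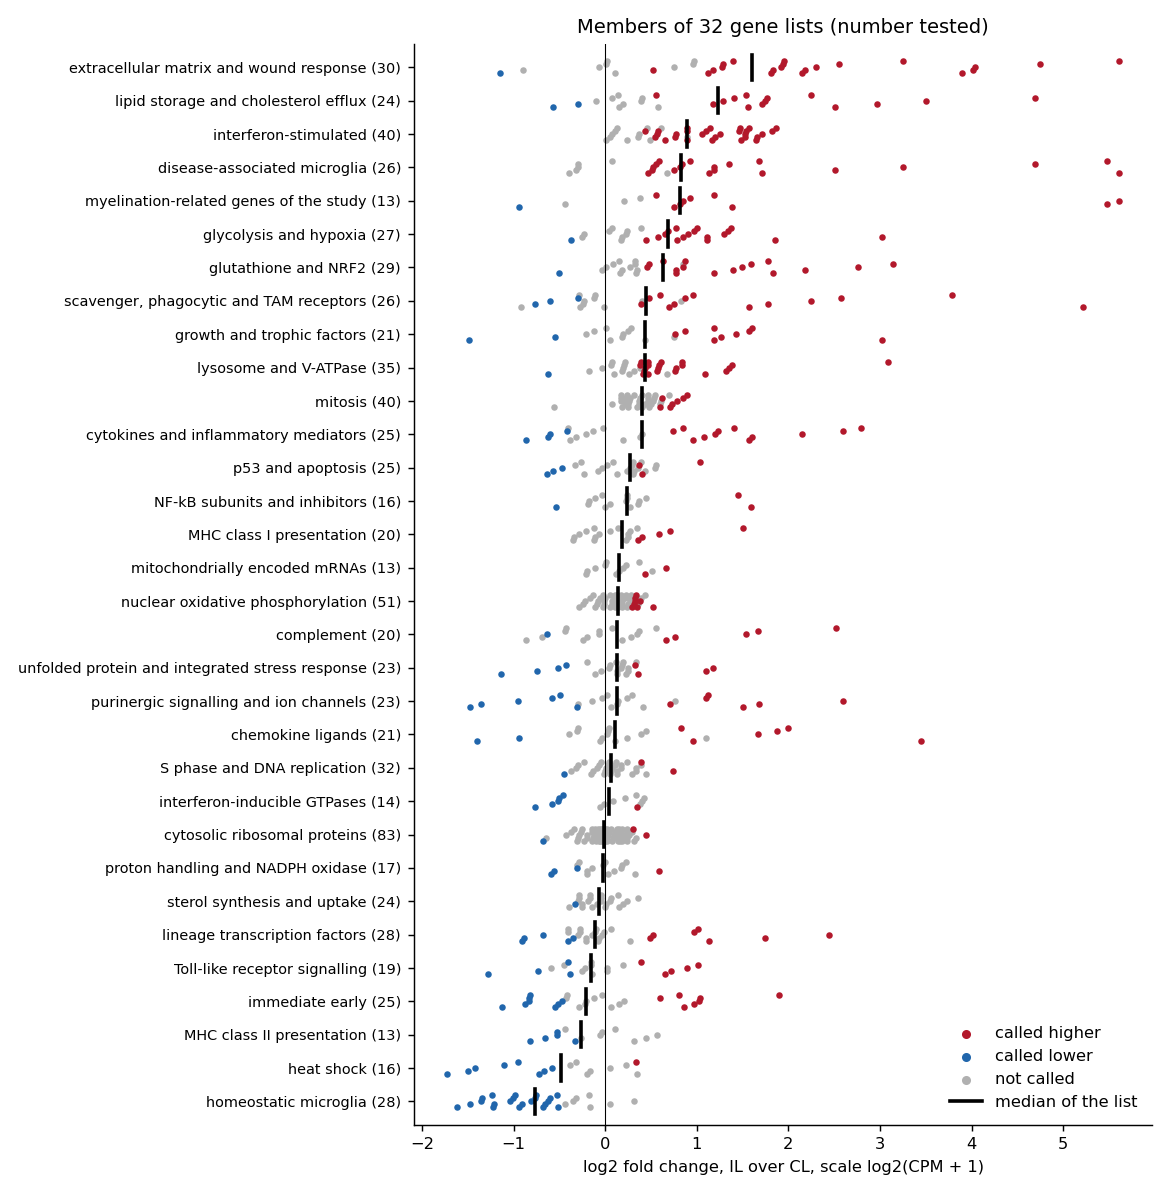
Log2 fold changes of IL over CL (x axis, log2(CPM + 1) scale) of the tested members of 32 gene lists (y axis, sorted by median, number tested in brackets), red where called higher, blue where called lower and grey where not called, with a bar at the median. The medians run from -0.76 for homeostatic microglia to 1.60 for extracellular matrix and wound response.

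Lipid storage and cholesterol efflux genes rose in 14 of 24 members and fell in 2, Mylip and Acsl1 (13 and 0 without the block, and with each mouse left out in turn 1, 1, 1 and 1 fell, and under median-ratio scaling 1 fell), where 10.2% of all genes rose and 10.3% fell, with a median of 1.23. Plin2, the coat protein of lipid droplets, read 215, 134, 79.4 and 95.6 CPM in CL and 1778, 1399.6, 1281 and 909 CPM in IL and rose 11.3-fold (3.50 ± 0.14, adjusted p = 1.25e-04). Hilpda, a droplet protein induced in hypoxia, rose 7.85-fold. Soat1, which esterifies cholesterol, Abca1, which exports it, and Lipa, the lysosomal acid lipase that frees it, rose 2.90-fold, 2.65-fold and 2.27-fold. Nr1h3, the sterol sensor LXR alpha, rose from 3.22, 2.71, 1.98 and 1.56 CPM to 14.1, 9.22, 9.90 and 6.49 CPM. Npc2 and Npc1, which move cholesterol out of lysosomes, were not called (0.19 ± 0.10 and 0.15 ± 0.10). Genes of sterol synthesis stayed close to the median of all genes, with 0 of 24 higher and 1 lower (0 and 0 without the block, and with each mouse left out in turn 0, 0, 2 and 0 fell, and under median-ratio scaling 0 fell), a share of 4.17% called against 20.4% of all genes, and a median of -0.07. The 1 that fell was Msmo1, at -0.33 ± 0.09 on the log2 scale, a call lost without the block, without mouse 3541, 3545 or 3551 and under median-ratio scaling.

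Lysosomal hydrolases and subunits of the V-ATPase, the pump that acidifies lysosomes, rose in 21 of 35 members and fell in 1 (5 and 0 without the block, and with each mouse left out in turn 12, 15, 19 and 13 rose and 0, 0, 1 and 0 fell), where 10.2% of all genes rose and 10.3% fell, with a median of 0.43. Gla, alpha-galactosidase, had the largest change, from 17.8, 11.9, 7.80 and 15.6 CPM to 129.8, 100.4, 121 and 91.3 CPM (8.52-fold). Psap (prosaposin), the precursor of sphingolipid activators, rose 2.12-fold from 1957 ± 702 CPM to 3773 ± 1097 CPM. Grn, progranulin, read 2657, 1491, 2228 and 2793 CPM and 3503, 3177, 3942 and 3625 CPM, and its rise of 0.76 ± 0.15 was lost without the block and without mouse 3545. Of the V-ATPase subunits, Atp6v1a rose 2.49-fold and Atp6v0d2, an osteoclast and macrophage subunit, 2.62-fold, and Atp6v0d1, Atp6v0c, Atp6v1d, Atp6v1b2, Atp6v1h, Atp6v1e1 and Atp6v1c1 rose by 0.38 to 0.77 on the log2 scale.

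Antioxidant genes, many of them targets of the transcription factor NRF2, rose in 16 of 29 members and fell in 1 (10 and 0 without the block), where 10.2% of all genes rose and 10.3% fell, with a median of 0.63. Hmox1, heme oxygenase 1, which degrades heme from blood, read 132, 197, 86.1 and 89.1 CPM in CL and 866, 771, 1432 and 1036 CPM in IL and rose 8.85-fold. Slc7a11, the cystine importer, rose 6.76-fold, Srxn1 4.53-fold, Prdx6 3.55-fold, Gclm, a subunit of glutathione synthesis, 3.43-fold, and Txnrd1 2.28-fold. The ferritin chains store iron. Fth1 read 2846, 2514, 1983 and 2263 CPM and 9513, 9993, 3534 and 6298 CPM and rose 3.02-fold, and Ftl1 read 3998, 3254, 2553 and 2648 CPM and 11801, 11046, 4049.5 and 8288 CPM. The rise of Ftl1 is uncertain as a single gene, since its near-identical copy Ftl1-ps1 read 3833 ± 1029.9 CPM and 10957 ± 4665 CPM and the counting may have divided reads between them. In both ferritin chains the IL library of mouse 3546 was the lowest of the IL libraries. Slc40a1, the iron exporter ferroportin, fell by 0.51 ± 0.08 on the log2 scale. Nfe2l2, which encodes NRF2, and Keap1, its inhibitor, were not called (0.01 and 0.18), and Gpx1, a short gene, read 1570.2, 1607, 422 and 1373 CPM in IL, lowest in mouse 3546 (0.32 ± 0.26, not called).

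Glycolysis and hypoxia genes rose in 17 of 27 members and fell in 1 (9 and 0 without the block, and with each mouse left out in turn 0, 0, 1 and 0 fell, and on the deposited CPM 2 fell, and under upper-quartile scaling 2 fell), where 10.2% of all genes rose and 10.3% fell, with a median of 0.68. Vegfa, the angiogenic factor induced by hypoxia, read 21.4, 13.8, 12.0 and 15.7 CPM in CL and 134, 175, 105 and 97.7 CPM in IL and rose 8.13-fold. Hif1a, the oxygen-regulated subunit of the hypoxia factor, rose 1.95-fold from 238 ± 18.1 CPM to 439.9 ± 42.8 CPM. Successive enzymes of glycolysis rose together, Gpi1, Pfkl, Pfkp, Aldoa, Tpi1, Gapdh, Pgk1, Pgam1, Eno1, Pkm and Ldha, by 0.44 to 1.34 on the log2 scale. Calls were lost for Aldoa and Ldha without the block. Pkm, pyruvate kinase, read 1351, 953, 732 and 904 CPM and 2474, 2568, 2070.4 and 2098 CPM, and Ldha, which makes lactate, 677, 577, 318 and 429.9 CPM and 979, 1177, 783 and 753 CPM. Slc16a3, the lactate exporter, rose 1.73-fold, and Ldhb, the lactate dehydrogenase chain that favours pyruvate, fell by 0.37 ± 0.09 on the log2 scale. The glucose importer Slc2a1 and the hexokinases Hk1, Hk2 and Hk3 were not called, at 0.07 to 0.39.

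The median of the genes of oxidative phosphorylation lay below 0 in mouse 3546 and above 0 in the other mice. Of 51 nuclear members 8 rose and 0 fell (0 and 0 without the block, and with each mouse left out in turn 1, 0, 33 and 0 rose, and on the deposited CPM 1 rose), a share of 15.7% where 10.2% of all genes rose (on the deposited CPM 1 of 51, where 1337 of 16376 genes rose), with a median of 0.14. Within the mice the median IL minus CL difference was 0.36, 0.58, -1.08 and 0.38. The sum of the list, in which abundant members weigh most, read 5977, 5496, 4237 and 5285 CPM in CL and 6740.2, 7009.6, 4242 and 6561 CPM in IL, and in no mouse was it lower in IL. The cytosolic ribosomal proteins split in the same way, with medians of 0.31, 0.51, -0.996 and 0.20 and mouse 3546 alone below 0. Of 83 ribosomal members tested of 85, 2 rose, Rps2 and Rpl4, and 1 fell, Rpl10 (0 and 1 without the block, and with each mouse left out in turn 0, 0, 32 and 0 rose and 1, 1, 1 and 0 fell, and on the deposited CPM 1 rose and 2 fell, and under upper-quartile scaling 1 rose), a share of 3.61% called against 20.4% of all genes. Many ribosomal and respiratory chain genes are short, and the IL library of mouse 3546 was low in short genes and had the fewest reads. The part of this library in the result was not tested in another way. Lost calls were those of Rps2 without the block and without mouse 3541, 3545 or 3551, of Rpl4 without the block and when any 1 mouse was left out and of Rpl10 without mouse 3551. The 13 mRNAs of the mitochondrial genome, with 2 higher and 0 lower (1 and 0 without the block, and with each mouse left out in turn 2, 1, 3 and 2 rose), a share of 15.4% called against 20.4% of all genes, had medians of 0.17, 0.33, -0.09 and 0.22 in the 4 mice. mt-Co1, a subunit of cytochrome c oxidase, read 622, 401, 569 and 602 CPM in CL and 735, 808, 955 and 744 CPM in IL and rose by 0.66 ± 0.14 on the log2 scale, a call lost without mouse 3545.

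**Figure D5:**
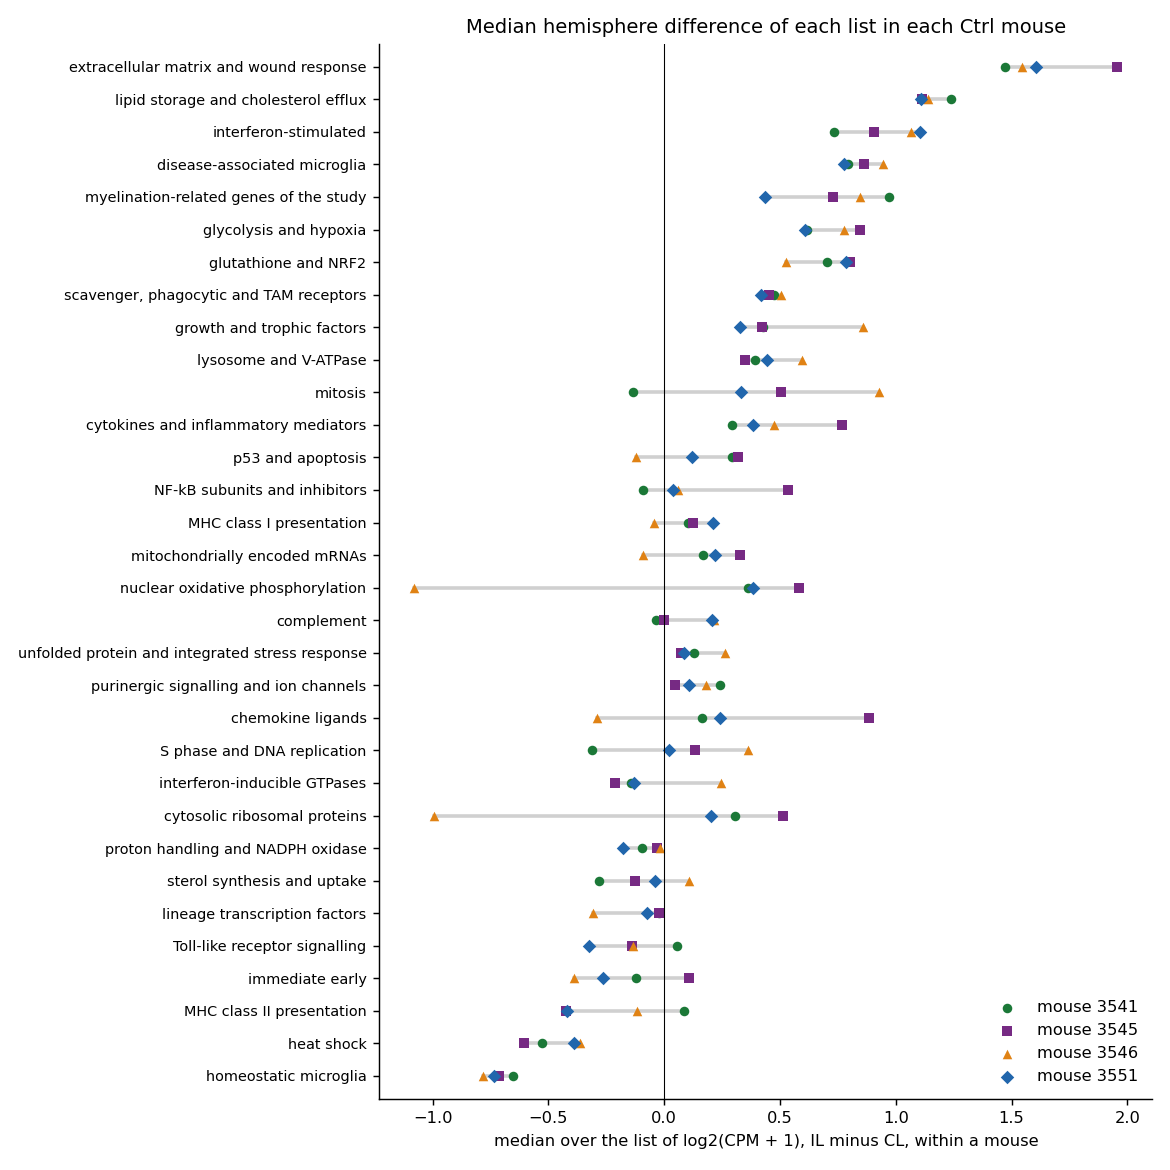
Median over each of 32 gene lists (y axis) of the IL minus CL difference in log2(CPM + 1) within a mouse (x axis), with a symbol for each of the 4 Ctrl mice. The homeostatic list lies between -0.65 and -0.78 and the disease-associated list between 0.78 and 0.95 in the 4 mice, whereas the nuclear oxidative phosphorylation and cytosolic ribosomal lists lie at -1.08 and -0.996 in mouse 3546 and at 0.20 or above in the other mice.

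Interferon-stimulated genes, which type I interferon switches on and many of which act against viruses, rose in 28 of 40 members, and 0 fell, where 10.2% of all genes rose, with a median of 0.89. Without the block 7 rose. The medians within the mice were 0.74, 0.91, 1.07 and 1.10. Ifit3, an antiviral protein with tetratricopeptide repeats, read 87.8, 36.2, 20.7 and 20.1 CPM in CL and 169, 104, 87.3 and 73.3 CPM in IL. The gene was higher in IL within every mouse (1.65 ± 0.16, adjusted p = 9.58e-04, lost without the block), but the CL library of mouse 3541 was above the IL libraries of mice 3546 and 3551. Rsad2 (viperin), Ifit1 and Irf7, the factor that amplifies interferon production, rose 3.53-fold, 3.27-fold and 2.87-fold. The HIN-200 genes Ifi204 and Ifi207, whose proteins bind DNA, rose 3.12-fold and 2.91-fold, and Zbp1, a sensor of Z-form nucleic acids, 3.65-fold. Isg15, a ubiquitin-like protein, read 6.32, 3.74, 4.41 and 6.41 CPM in CL and 16.9, 12.3, 2.29 and 16.1 CPM in IL and was not called. The 40 members summed to 793 to 1581 CPM in CL and 1471 to 2352 CPM in IL. Ifitm3, a short gene, read 27.04 CPM in the IL library of mouse 3546 and at least 106 CPM in the other IL libraries, and was not called (0.61 ± 0.30). Irf9, Mx2, Ddx58, Herc6 and Slfn8 were not called, at 0.01 to 0.12.

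The interferon response element is a pair of GAAA sites 2 bases apart, bound by factors that type I interferon activates. Its core, GAAANNGAAA on either strand, was found in the 250 bases before the start of 14 of 29 interferon-stimulated genes with a RefSeq promoter (48.3%) and of 312 of 11074 tested genes with one (2.82%). Among the 18 of these that rose 11 held it, and among the 11 not called 3 did. For the 4 matching genes of largest rise, the windows of build GRCm38.p6 are printed from RefSeq 5′ to 3′ on the strand of the gene, with the match nearest the start in capitals, to show both GAAA sites and their spacing.
Rsad2, chr12:26456538-26456597, minus strand: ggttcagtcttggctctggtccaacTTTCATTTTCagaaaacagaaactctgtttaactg
Ifit1, chr19:34640779-34640838, plus strand: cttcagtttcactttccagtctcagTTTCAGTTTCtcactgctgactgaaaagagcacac
Ifit3, chr19:34583382-34583441, plus strand: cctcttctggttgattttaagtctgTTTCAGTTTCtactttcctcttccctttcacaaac
Ifi207, chr1:173741816-173741875, minus strand: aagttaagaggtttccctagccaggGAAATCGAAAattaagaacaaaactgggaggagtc
The matches lay 120 to 111, 85 to 76, 122 to 113 and 41 to 32 bases before the start. A match is a description of the letters and not a measured binding site.

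The guanylate-binding proteins and immunity-related GTPases, which type II interferon induces most strongly, gave other counts. Of 14 members 1 rose and 5 fell (0 and 1 without the block, and with each mouse left out in turn 0, 0, 0 and 0 rose and 3, 3, 4 and 3 fell, and on the deposited CPM 0 rose, and under median-ratio scaling 2 rose, and under upper-quartile scaling 0 rose), where 10.2% of all genes rose and 10.3% fell, with a median of 0.04. Igtp read 101, 91.0, 82.6 and 64.7 CPM in CL and 62.3, 53.5, 56.2 and 50.1 CPM in IL and fell by 0.50 ± 0.09 on the log2 scale, and Irgm2 and Gbp9 fell with log2 fold changes of -0.77 ± 0.10 and -0.58 ± 0.10. The Igtp call was lost without the block and without mouse 3541 or 3545. Irgm1, the member that rose, went from 104, 85.3, 55.9 and 49.9 CPM to 111, 92.8, 78.4 and 64.3 CPM (0.35 ± 0.09) and lost its call when any 1 of the mice was left out, without the block and on the deposited CPM.  Whether the 2 interferon lists differed from each other was not tested.

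Cytokines and inflammatory mediators rose in 12 of 25 members and fell in 4 (7 and 2 without the block), where 10.2% of all genes rose and 10.3% fell, with a median of 0.40. Il1b, interleukin 1 beta, read 536, 357, 272 and 431 CPM in CL and 1067, 1176, 612 and 636 CPM in IL and rose 2.29-fold, a call lost without the block. Il1rn, the antagonist at its receptor, rose more, 6.96-fold, from 34.3, 17.4, 13.7 and 11.6 CPM to 123.2, 168, 115 and 90.4 CPM. Ptgs2, the inducible cyclooxygenase, read 75.3, 42.0, 36.2 and 55.2 CPM and 328, 395, 249 and 223 CPM (2.60 ± 0.20), and Osm, oncostatin M, 189.8, 132, 144 and 179 CPM and 412, 574, 452 and 408 CPM (1.60 ± 0.17). Of the classical alarm cytokines Tnf, Il1a and Il6 were not called, at 0.38 ± 0.22, -0.21 ± 0.25 and -0.31 ± 0.28 on the log2 scale, and the Il1a libraries of the 2 hemispheres overlapped, 869.6, 674, 696 and 1086 CPM in CL and 398, 849.6, 876 and 649 CPM in IL. Nlrp3, the inflammasome sensor, rose 1.80-fold and Gsdmd, the pore that it opens, fell by 0.42 ± 0.07, while Casp1 and Pycard were not called. Nos2 and Lif rose from means of 0.275 and 1.09 CPM to 2.48 and 4.95 CPM, with 0 CPM of Nos2 in the CL library of mouse 3551.

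Chemokine ligands showed no single direction. Of 21 members tested of 22, 6 rose and 2 fell (4 and 1 without the block, and with each mouse left out in turn 2, 2, 2 and 1 fell), where 10.2% of all genes rose and 10.3% fell, with a median of 0.10. Cxcl1, Cxcl2 and Cxcl3, ligands of the neutrophil receptor CXCR2, rose 3.66-fold, 3.17-fold and 10.95-fold. The Cxcl1 call was lost without the block. Cxcl2 read 67.1, 77.0, 69.8 and 98.6 CPM in CL and 284, 340.5, 116 and 262 CPM in IL, with the lowest IL value in mouse 3546. Cxcl16 read 275, 176, 149 and 156 CPM and 343, 343, 356 and 309 CPM and rose 1.95-fold, and Cxcl14 and Ccl22 rose at low levels. The monocyte attractants Ccl2, Ccl7 and Ccl12 were not called, at 0.24 ± 0.24, 0.39 ± 0.22 and 0.04 ± 0.33, and neither were Ccl3 and Ccl4, which are abundant in both hemispheres. Ccl4 read 1468, 1069.9, 1207 and 1920.1 CPM in CL and 1127, 1534, 440.0 and 1672 CPM in IL, a wide overlap. Ccl24 and Ccl8, at -1.40 ± 0.17 and -0.94 ± 0.17, fell.

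Toll-like receptors sense microbial and damaged-cell molecules. In the list of 19 members 5 rose and 4 fell (1 and 2 without the block, and with each mouse left out in turn 2, 2, 5 and 2 rose and 5, 2, 4 and 2 fell), a share of 47.4% called against 20.4% of all genes. Cd14, the co-receptor for lipopolysaccharide, read 2296, 2243, 1775 and 1756 CPM in CL and 3614, 6083, 3159 and 3054 CPM in IL and rose 2.02-fold, a call lost without the block. Tlr2 rose by 0.72 ± 0.14, a call lost without the block and without mouse 3545 or 3551, and Tlr7, Tlr4, Tlr3 and Tlr5 fell, with log2 fold changes of -0.38, -0.40, -0.74 and -1.28. The Tlr7 call was lost without the block and without mouse 3545 or 3551. The adaptor Myd88 was not called (0.02 ± 0.07). Of 16 NF-kB subunits and inhibitors 2 rose, Bcl3 and Traf1, and 1 fell, Nfkb1 (2 and 0 without the block, and on the deposited CPM 2 fell), a share of 18.8% against 20.4% of all genes. Bcl3 read 23.4, 10.7, 11.6 and 17.0 CPM and 37.4, 36.9, 41.0 and 45.4 CPM. Nfkbia, the abundant inhibitor that NF-kB itself induces, read 2514, 1836, 1676 and 2138 CPM and 2465, 2867, 1469 and 2445 CPM and was not called.

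Complement receptors and factors rose in 5 of 20 members and fell in 1 (4 and 1 without the block, and with each mouse left out in turn 2, 1, 3 and 1 fell, and on the deposited CPM 2 fell), where 10.2% of all genes rose and 10.3% fell. C3ar1, an anaphylatoxin receptor, read 492, 492, 514 and 532 CPM in CL and 754, 746, 902 and 651 CPM in IL. C5ar1, the other, read 476, 330.2, 418 and 398 CPM and 654, 693, 590.1 and 630.2 CPM. Both rose without overlap, by 0.67 ± 0.10 and 0.76 ± 0.12 on the log2 scale. Cd93, Cfp (properdin) and Cfb rose 5.75-fold, 3.17-fold and 2.89-fold. C1qb, which starts the classical pathway, was not called at 8012, 9354, 5113 and 5790.0 CPM in CL and 6912, 8438, 3766 and 6564 CPM in IL.

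MHC class I and class II molecules present antigen to T cells. Of 20 class I members 5 rose and 0 fell (1 and 0 without the block, and with each mouse left out in turn 3, 2, 4 and 2 rose, and on the deposited CPM 2 rose and 1 fell, and under upper-quartile scaling 1 fell), where 10.2% of all genes rose and 20.4% were called in either direction. H2-D1 read 1854, 1130.4, 1255 and 919.5 CPM in CL and 2288, 1938, 2082 and 1481 CPM in IL and rose by 0.71 ± 0.11, a call lost without the block. Nlrc5, the activator of class I genes, rose 2.83-fold from 3.76 ± 1.80 CPM to 12.1 ± 5.57 CPM, and B2m, a short gene, was not called (-0.34 ± 0.17). Of 13 class II members 0 rose and 5 fell (0 and 1 without the block), where 10.3% of all genes fell, with a median of -0.27. Those that fell were Cd86, H2-DMa, H2-DMb1, H2-Oa and H2-Ob, the costimulatory ligand and the chaperones of peptide loading. Calls were lost for Cd86 and H2-DMa without the block and for H2-DMb1 without the block and without mouse 3541, 3545 or 3551. Cd86 read 352, 381, 342 and 276 CPM and 201, 226, 257 and 198 CPM, without overlap. The class II chains H2-Aa, H2-Ab1 and H2-Eb1 and the invariant chain Cd74 were not called, and Cd74 ran from 514 to 1199 CPM among the IL libraries. The difference between the class I and class II counts was not tested.

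Transcription factors of the myeloid lineage rose in 7 and fell in 5 of 28 members (4 and 0 without the block, and with each mouse left out in turn 4, 3, 5 and 3 fell, and on the deposited CPM 8 fell), a share of 42.9% called against 20.4% of all genes. Cebpb, a factor of inflammatory macrophages, read 1147, 605, 569.8 and 505 CPM in CL and 1520.1, 1797, 853 and 1573 CPM in IL and rose 2.20-fold, a call lost without the block and without mouse 3545 or 3551. Bhlhe40 rose 5.42-fold, and Id2 and Stat3 by 0.52 ± 0.09 and 0.49 ± 0.11 on the log2 scale. The Id2 call was lost without the block. Those that fell were Sall1, Sall3, Mef2a, Mef2c and Myc, of which Mef2c and Mef2a take part in microglial identity. Spi1 and Irf8, factors on which macrophage development rests, were not called, at 0.06 ± 0.11 and -0.14 ± 0.09.

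Immediate early genes respond within minutes to stimulation and also to tissue dissociation. Of 25 members 7 rose and 8 fell (6 and 3 without the block, and with each mouse left out in turn 4, 5, 7 and 5 fell), where 10.2% of all genes rose and 10.3% fell. The 3 orphan nuclear receptors Nr4a1, Nr4a2 and Nr4a3 rose, Nr4a1 from 517, 403, 576 and 673 CPM to 817, 1015, 1084 and 1232 CPM, and Jun, Jund, Atf3, Egr2, Klf2, Klf4, Btg2 and Ier5 fell. The Atf3 call was lost without the block and without mouse 3541, 3545 or 3551. Jun read 2401, 4487, 7822 and 6368 CPM in CL and 1286, 1401, 3295 and 3089 CPM in IL and fell 2.19-fold, with overlap between mice and a call lost without the block. Fos, at 6004, 4406, 6401 and 7281 CPM and 4428, 4437, 3724 and 4072 CPM, was not called (-0.43 ± 0.18). Heat shock genes fell in 8 of 16 members and rose in 1 (1 and 0 without the block, and with each mouse left out in turn 0, 1, 1 and 0 rose, and on the deposited CPM 0 rose, and under upper-quartile scaling 0 rose), a share of 56.2% called against 20.4% of all genes, with a median of -0.49. Hspa1a, an inducible HSP70, read 2080.4, 2959.7, 1527 and 1022 CPM in CL and 897, 741, 436 and 407 CPM in IL and fell 2.83-fold, a call lost without the block. Its near-identical copy Hspa1b, with which it may share reads, fell 3.31-fold. Hspa8, the constitutive chaperone, fell by 0.58 ± 0.12, a call lost without the block and without mouse 3541, 3545 or 3551, and Hspa5, the chaperone of the endoplasmic reticulum, was not called (0.05 ± 0.11).

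Genes of the unfolded protein and integrated stress responses rose in 4 and fell in 4 of 23 members (1 and 1 without the block, and with each mouse left out in turn 3, 1, 2 and 1 rose and 1, 2, 4 and 2 fell, and on the deposited CPM 2 rose, and under upper-quartile scaling 2 rose), a share of 34.8% called against 20.4% of all genes. Those that fell include Atf4 and Ddit3 (CHOP), the factors of the integrated stress response, with log2 fold changes of -0.75 ± 0.11 and -1.13 ± 0.24, while Trib3 and Asns, known targets of ATF4, rose from means of 1.14 and 4.08 CPM to 3.72 and 8.81 CPM. Atf4 read 229, 252, 248 and 276 CPM in CL and 118, 139, 180.0 and 131 CPM in IL, without overlap. Of 25 genes of the p53 response and apoptosis 3 rose and 3 fell (1 and 0 without the block, and with each mouse left out in turn 1, 1, 8 and 1 rose and 1, 0, 3 and 1 fell), a share of 24.0% called against 20.4% of all genes. Gadd45b read 116, 77.8, 74.0 and 98.8 CPM and 192, 178, 149 and 184 CPM and rose 2.05-fold, Gadd45g fell by 0.63 ± 0.17 on the log2 scale, and Cdkn1a and Mdm2, direct p53 targets, were not called, at 0.36 ± 0.16 and 0.31 ± 0.09. The Gadd45g call was lost without the block and without mouse 3541, 3545 or 3551.

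Of 40 cell cycle genes of mitosis 7 rose and 0 fell (1 and 0 without the block, and with each mouse left out in turn 15, 0, 6 and 0 rose, and on the deposited CPM 4 rose), a share of 17.5% where 10.2% of all genes rose, and 39 of the 40 had a log2 fold change above 0, with a median of 0.40 and medians of -0.13, 0.50, 0.93 and 0.33 in the 4 mice.  Mki67, the antigen Ki-67 of cycling cells, read 80.7, 49.2, 53.8 and 74.3 CPM in CL and 82.4, 101, 127 and 147 CPM in IL, without overlap, and rose by 0.90 ± 0.18, a call lost without mouse 3545 or 3551. Ccnb1, Ccnb2, Cenpa, Plk1, Birc5 and Ube2c also rose, Plk1 in 3 of 4 mice, and Ccnb2 and Birc5 lost their calls without the block and without mouse 3545 or 3551. Of 32 genes of S phase and DNA replication 2 rose, Rrm2 and Gins2, and 1 fell, Slbp (0 and 0 without the block, and with each mouse left out in turn 2, 0, 2 and 0 rose and 0, 0, 4 and 1 fell, and on the deposited CPM 1 rose, and under upper-quartile scaling 1 rose), a share of 9.38% called against 20.4% of all genes, with a median of 0.06. Lost calls were those of Rrm2 without the block and without mouse 3545 or 3551, of Gins2 without the block and without mouse 3541, 3545 or 3551 and of Slbp without the block and without mouse 3541 or 3545. Mcm3, the most abundant member not called, read 295, 231, 161 and 248 CPM and 189, 204, 173 and 226 CPM. In the 250 bases before the start, the letters CCAAT stood in 26 of 34 mitosis promoters (76.5%) and 15 of 27 S phase promoters (55.6%), against 36.2% of all, and TTTGAA, the CHR element of late cell cycle genes, in 13 (38.2%) and 3 (11.1%) against 10.99%, on either strand.

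Purinergic receptors and ion channels of microglia rose in 6 and fell in 6 of 23 members (5 and 3 without the block), a share of 52.2% called against 20.4% of all genes. The ADP receptors P2ry12 and P2ry13 fell, as did P2rx7 (-0.49 ± 0.10) and Entpd1, the ectonucleotidase CD39 that removes ATP and ADP. Entpd1 read 555, 589, 757 and 649.9 CPM in CL and 274, 323, 382 and 268 CPM in IL. Nt5e (CD73), which makes adenosine from AMP, rose 6.05-fold at low level, from 3.82, 1.38, 2.01 and 1.12 CPM to 14.4, 25.3, 12.6 and 13.9 CPM, with the adenosine receptor Adora2b at 3.19-fold. P2rx4, an ATP-gated channel, rose by 0.71 ± 0.09, and the potassium channels Kcnn4 and Kcna3 by 1.50 ± 0.15 and 1.10 ± 0.18 on the log2 scale. Of 17 genes of proton handling and NADPH oxidase 1 rose and 3 fell (0 and 1 without the block, and with each mouse left out in turn 1, 1, 2 and 1 rose), a share of 23.5% called against 20.4% of all genes. Hvcn1, the voltage-gated proton channel, read 301, 282, 369 and 314 CPM and 219, 207, 268 and 267 CPM and fell by 0.31 ± 0.08 on the log2 scale, a call lost without the block and when any 1 of the mice was left out. Slc9a9, an endosomal sodium-proton exchanger, fell by 0.56 ± 0.08 on the log2 scale. The oxidase subunits Cybb, Cyba, Ncf1 and Ncf4 were not called, at -0.19 to 0.18.

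Growth and trophic factors rose in 9 and fell in 2 of the 21 members tested of 25 (6 and 1 without the block, and with each mouse left out in turn 1, 2, 2 and 1 fell), where 10.2% of all genes rose and 10.3% fell, with a median of 0.44. Beside Vegfa, Osm, Igf1, Gas6 and Grn, Csf1, the growth factor of microglia and macrophages, rose 2.28-fold from 131, 78.7, 112 and 149 CPM to 214, 223, 275 and 285 CPM, and Hgf, Lif and Areg rose at means under 10 CPM. Hbegf and Pdgfb fell, Hbegf from 15.03, 13.1, 23.7 and 14.4 CPM to 4.10, 5.23, 5.89 and 4.12 CPM. Tgfb1, the factor that sustains the homeostatic state, was not called, at 132, 133, 159 and 111 CPM in CL and 146, 141, 149.6 and 134 CPM in IL, and its receptor Tgfbr1, a member of the homeostatic list, fell by 1.01 ± 0.10 on the log2 scale.

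The difference between hemispheres was also compared with that of cKO mice, which carry a floxed gene beside the same Cre and gave 3 IL and 3 CL libraries. These came from 4 cKO mice, of which 2 gave both hemispheres. Of 18476 genes tested for an interaction of genotype and hemisphere 4 (0.0216%) were called, Ifi202b, Gm3411, Gm3755 and Gm6356, and 1260 reached an unadjusted p below 0.05. The count of calls was 8 without mouse 3546, 0 without mouse 3541, 3545 or 3551 and 0 without the block, where 477 reached an unadjusted p below 0.05. In Ctrl mice the means of all 4 were at most 0.117 CPM in either hemisphere and none passed the filter on low values there, so their hemisphere difference lay in the cKO libraries. These 4 genes were thus not tested between the hemispheres of Ctrl mice and could not be among the genes called there. With 3 and 4 libraries a group, an interaction that was not called does not show that the hemispheres differed alike in both genotypes.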

How the data were processed

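RNA of CD11b+ cells from 14 hemispheres was prepared with the SMART-Seq v4 kit and sequenced on a NovaSeq instrument. Per the study's methods and the processing notes, the authors aligned reads with STAR to mm10 and handled them in Partek Flow (Partek 8.0). The deposited table is named raw counts, but its values are counts per 1e+06 reads (CPM) made by the authors, since each library sums to that number, and 79.0% to 83.5% of the low values (under 100 reads) in the 8 Ctrl libraries were whole multiples of the value of 1 read within 0.03 of a read. Too few values came out whole for a count test. The value of 1 read gave the depth of each library. In all, 33802 of 33939 gene IDs matched the GRCm38 annotation, and 0 columns belonged to no sample. The authors' tables of cKO against Ctrl (means, ratios, fold changes, p-values and false discovery rates) were not used.

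Genes with at least 0.288 CPM (10 reads in the median library) in at least 4 of the 8 libraries and 15 reads in total were kept, scaled by trimmed means of M values (30% of M and 5% of A trimmed, no weights) and analysed as log2(CPM + 1) with limma 3.58.1 (R 4.3.3), with an intensity trend and the mouse as a fixed block. Fold changes are on this scale, which understates the change of low genes. P-values were two-sided and adjusted by Benjamini-Hochberg over all genes tested. Calls needed a 1.2-fold change or more and an adjusted p of 0.05 or less. The fit was tested on simulated data. The pairing comes from the labels, which give both libraries of a mouse its number, and the same-mouse correlations of deviations from the group means were 0.370 to 0.608, against -0.543 to 0.505 between mice, where the IL library of mouse 3545 correlated more with the CL library of mouse 3541 than with its own. Deviations of a gene sum to 0 within a group, so positive same-mouse correlations lower those between mice by construction. Genotype by hemisphere was tested over all 14 libraries. Each library is 1 hemisphere of 1 mouse, so n counts mice.

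By rule, the text names the 12 largest rises and 12 largest falls among called genes that moved alike in 4 mice and reach a mean log2(CPM + 1) of 4 in a hemisphere, the 10 most abundant called genes, the 3 most abundant called members and the most abundant member not called in each of 32 gene lists, members of 12 lists of cell type markers, and genes with a called interaction. Some genes that the rule covers are not reported here. The samples and the lists were chosen with earlier results of these data known. RefSeq promoters (GRCm38.p6) were found for 11074 tested genes, and letters were searched on both strands of the 250 bases before the start. Gpr56 and Irak-m are older names of Adgrg1 and Irak3 and were counted once. Alternatives were other scalings, pseudocounts, filters and thresholds, no block, a random block for the mouse over all 14 libraries, and each mouse left out. Python 3.11.15, numpy 2.4.6, pandas 2.3.3 and matplotlib 3.10.9 were used.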

Additional observations from a re-analysis of the deposited data

Results flagged for a closer look

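Among 300 groups of 4 libraries examined, 8 held a value far from the other 3 by Dixon's test. By chance about 1 in 20 groups would, a larger share than was found, so these values are listed as a description. In 4 of the 8 the value belonged to the IL library of mouse 3546. There Gbp7, an interferon-induced GTPase, read 59.2 CPM against 40.4 to 47.0 CPM in the other IL libraries, and 3 genes of replication and division were low, Rrm2 at 91.4 CPM against 126 to 150.1 CPM, Mcm3 at 173 CPM against 189 to 226 CPM and Birc5 at 37.8 CPM against 98.9 to 116 CPM. In the IL library of mouse 3551, C3ar1 read 651 CPM against 746 to 902 CPM, and the monocyte markers summed to 1827 CPM against 2238 to 2297 CPM. Elane read 18.9 CPM in the IL library of mouse 3541 against 0.825 to 0.900 CPM. Fn1 read 15.1 CPM in the CL library of mouse 3545 against 28.4 to 34.2 CPM.

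The difference of IL minus CL differed between genotypes by the test of the interaction in 4 genes, all of them near 0 in Ctrl mice. The Ctrl minus cKO difference on the log2 scale was -1.91 for Ifi202b, a HIN-200 gene induced by interferon, which read 9.67 CPM in CL and 39.3 CPM in IL as means of the cKO libraries and 0 in 7 of the 8 Ctrl libraries. It was 2.03 for Gm3411, 0.86 for Gm3755 and 1.84 for Gm6356, predicted genes on chromosome 14, whose cKO means were 14.6, 2.05 and 14.6 CPM in CL and 2.25, 0.609 and 3.17 CPM in IL. The Gm genes lie in families of similar copies, among which the counting may have divided reads.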

How the results depend on the processing

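The number of genes called depended on the pairing by mouse and on which mouse was left out. Without the replicate block 1230 genes were called, 686 higher and 544 lower. With 1 mouse left out, the calls numbered 1586 (without mouse 3545) to 3901 (without mouse 3546), with 911 to 2128 higher and 675 to 1773 lower. With no filter beyond 1 read there were 2080 calls (1103 and 977), and at a fold change of at least 2 there were 748 (515 and 233). The other settings stayed within 1.5 times of the 3348 calls. The split moved with the scaling, from 1663 of 3348 calls higher to 1337 of 3621 on the deposited CPM, 1489 of 3484 under upper-quartile scaling and 1796 of 3326 under median-ratio scaling, where the median log2 fold change of all genes was -0.03, -0.09, -0.06 and -0.01. The genotype by hemisphere count of 4 became 0 without the replicate block, 7 on the deposited CPM, and 0 to 8 with 1 mouse left out.

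Of the 159 named genes that were called, 96 kept the call with any 1 mouse left out, 70 without the replicate block and 60 under each of the settings of block, scaling, pseudocount, filter and mice in which they were tested (151 of the 159 with 10 reads in every library), and none of the 159 changed sign there. A fold change of at least 2 was not among these settings. Of 96 named genes not called, 31 changed sign in at least 1 of them, 17 without mouse 3546. Of these, 3 were called in the new direction without mouse 3546, Fcer1g to 0.39, Hbb-bs to 0.46 and Hba-a2 to 0.67, and with another mouse left out they were as low as -0.32, -0.26 and -0.47. Of 64 counts of list members higher or lower, 44 moved by over 1.5 times without the block, 10 to 26 with 1 mouse left out, 20 with no filter beyond 1 read and 15 on the deposited CPM. The depth of 12.2 M reads in the IL library of mouse 3546 limits genes under about 0.245 CPM, which is 3 reads there. The cause of these shifts was not tested.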
